A study of Mus musculus with 36 samples.

Results

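The genes that build and service the axoneme, the microtubule core of cilia and of the sperm tail, were followed in the testis of juvenile mice with altered Brdt. Members were all genes on the array whose symbol marks an axonemal dynein heavy chain (Dnah), intermediate or light chain (Dnai, Dnaic, Dnal, Dnali), dynein assembly factor (Dnaaf), tektin (Tekt), radial spoke protein (Rsph), intraflagellar transport protein (Ift) or Bardet-Biedl syndrome protein (Bbs), with Spag6, Spag6l, Spag16 and Spag17 of the central apparatus. Of 55 such genes on the array, 43 had a probe detected on all 6 arrays of at least 1 group and were kept, out of 11529 genes tested in all. They were 5 heavy chains, 4 intermediate and light chains, 4 assembly factors, 3 tektins, 4 radial spoke genes, 3 central apparatus genes, 12 intraflagellar transport genes and 8 Bbs genes. Meig1, Tekt2 and Tekt4 were not analysed here.

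In an axoneme, outer and inner dynein arms slide doublet microtubules against each other, and radial spokes and the central apparatus regulate the arms. The arms are put together in the cytoplasm by assembly factors before they are carried into the cilium, intraflagellar transport moves cargo along the axoneme, and the BBSome is an adaptor for membrane cargo. In mouse testis the sperm tail begins to form in round spermatids, and transcripts of many axonemal genes are already present in spermatocytes. Brdt encodes a testis-specific double bromodomain protein of the BET family, which binds acetylated histones.

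Total RNA of whole testis was measured on single-colour Illumina bead arrays, 36 arrays from 24 animals, all labelled as strain C57BL/6. At 17 days post partum (dpp) 4 animals homozygous for the knockout allele were compared with 6 heterozygous animals. At 20 dpp 4 homozygous knockouts were compared with 3 wild types of the same line, and 3 animals homozygous for a deletion of the first bromodomain (BD1) were compared with 4 controls of the BD1 line, 2 heterozygous (191 and 219) and 2 wild type (195 and 196). The controls therefore differ in genotype between the ages. A probe was detected, or above background, on an array where the deposited detection p was under 0.01. Values below are log2 signals after background correction and quantile normalisation, with arrays of an animal averaged so that n counts animals. A gene is called where limma gave a Benjamini-Hochberg adjusted p under 0.05 over all 11529 genes, and differences are given as log2 fold change ± SE. Arrays had 17379 to 20016 detected probes, and the Brdt probe itself changed by -2.90 in the knockout at 17 dpp, by -3.70 at 20 dpp and by -1.03 in the BD1 deletion (log2 fold change; limma, adjusted p = 7.53e-07, 1.9e-09 and 0.0323). The position of that probe relative to the altered exons is not known here. Nothing in the labels says whether repeated arrays of an animal carry separate RNA extracts. Whole testis RNA cannot tell fewer cells of a type from less RNA per cell, which holds for every difference below.

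Of the 43 members, 32 were detected on all arrays of all 6 groups. The other 11 were kept through some groups only. Dnah1 and Spag6 were detected on every array in the wild types at 20 dpp alone, Dnaaf6 in the BD1 deletion alone, and Dnaic2 in both control groups at 20 dpp. Tekt5, Rsph6a and Bbs1 passed in the wild types, the BD1 controls and the BD1 deletion, Tekt3 and Dnah17 in the 4 groups at 20 dpp, and Dnali1 and Spag16 in all groups but the knockout at 17 dpp. A lower level of these 11 in some other group is thus partly given by how members were chosen. Just inside the limit lay Spag6, detected on 11 of 36 arrays in all, and just outside lay the inner arm heavy chain gene Dnah7a, detected on at most 5 of 6 arrays in a group and on 25 of 36 in all. The other 11 genes left out were Dnaaf4, Dnaaf6b, Dnah5, Dnah6, Dnah9, Dnah10, Dnal4, Ift46, Ift57, Rsph4a and Spag17. Spag6 and Spag6l are near-identical copies, and whether their probes share transcripts was not tested. In the heterozygous animals at 17 dpp the Spag6l probe had a mean log2 signal of 11.64, detected on 6 of 6 arrays. The Spag6 probe had a mean of 4.89 there and was detected on 0 of 6.

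Promoters are shown for the 4 members that fell most in knockouts at 20 dpp among those with a promoter in the table used, and for Ift20, the only member that rose at that age. Each runs from 250 bases before to 50 after the annotated start (RefSeq, GRCm38.p6), read 5′ to 3′ on the strand of the gene. For Dnaic2 the start used lies inside the annotated gene, whose first base is at 114721341 on chromosome 11. Capitals mark matches on either strand to GTTGCC (1 arm of the X-box bound by RFX factors), TGACGT (1 arm of the cAMP response element bound by CREB and CREM) or AACNGNC (the site of MYB factors).
Tekt3, chr11:63061409-63061708, plus strand: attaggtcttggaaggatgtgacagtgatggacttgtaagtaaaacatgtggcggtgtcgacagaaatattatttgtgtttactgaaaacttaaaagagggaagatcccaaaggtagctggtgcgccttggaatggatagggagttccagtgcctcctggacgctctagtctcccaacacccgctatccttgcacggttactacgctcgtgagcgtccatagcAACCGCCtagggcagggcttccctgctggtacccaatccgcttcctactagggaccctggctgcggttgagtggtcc
Dnali1, chr4:125065608-125065907, minus strand: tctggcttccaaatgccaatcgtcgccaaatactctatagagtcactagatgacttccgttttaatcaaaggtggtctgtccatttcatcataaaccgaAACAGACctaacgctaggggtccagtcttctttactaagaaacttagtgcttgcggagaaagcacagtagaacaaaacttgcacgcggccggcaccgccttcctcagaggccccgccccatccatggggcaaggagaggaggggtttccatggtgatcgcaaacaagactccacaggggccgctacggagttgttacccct
Rsph6a, chr7:19054437-19054736, plus strand: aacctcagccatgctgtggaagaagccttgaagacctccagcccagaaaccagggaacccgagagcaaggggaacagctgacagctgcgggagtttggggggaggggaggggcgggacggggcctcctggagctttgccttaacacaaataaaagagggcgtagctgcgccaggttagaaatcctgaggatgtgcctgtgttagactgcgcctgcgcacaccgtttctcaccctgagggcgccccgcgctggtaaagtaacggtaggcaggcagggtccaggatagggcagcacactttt
Dnaic2, chr11:114727169-114727468, plus strand: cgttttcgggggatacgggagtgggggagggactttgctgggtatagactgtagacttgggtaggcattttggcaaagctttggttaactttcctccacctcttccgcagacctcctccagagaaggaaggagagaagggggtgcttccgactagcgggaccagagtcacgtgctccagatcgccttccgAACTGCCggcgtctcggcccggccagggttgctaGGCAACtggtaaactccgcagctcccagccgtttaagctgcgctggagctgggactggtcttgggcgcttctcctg
Ift20, chr11:78536111-78536410, plus strand: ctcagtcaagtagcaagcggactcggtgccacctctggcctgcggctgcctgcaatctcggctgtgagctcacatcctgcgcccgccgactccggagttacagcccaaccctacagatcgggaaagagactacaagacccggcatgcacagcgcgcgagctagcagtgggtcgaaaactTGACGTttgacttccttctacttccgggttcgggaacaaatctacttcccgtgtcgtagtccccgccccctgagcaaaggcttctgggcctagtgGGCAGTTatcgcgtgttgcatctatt
Tekt3 and Dnali1 each held 1 MYB match, and Rsph6a held no match. Dnaic2 held 1 X-box arm and a MYB match upstream of its start inside the gene. Ift20 held 1 arm of the cAMP response element and a MYB match.

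A promoter was found for 38 members (39 promoters). GTTGCC was present in 14 of the 39 (35.9%) and in 12.5% of all 32851 promoters of the same length, AACNGNC in 26 (66.7%) and in 32.8%, and TGACGT in 6 (15.4%) and in 7.51%. The longer X-box, GTNNCC and GGNAAC with 2 bases between them, which can contain GTTGCC, was searched on both strands and was present in 6 (15.4%) and in 1.29%. These matches are a description of letters in a fixed window. The X-box matches are shown with their flanks, in capitals, because this motif had the highest ratio of its share in the members to its share in all promoters among those given here, a choice made after the matches were counted.
Bbs1, chr19:4906605-4906634, minus strand: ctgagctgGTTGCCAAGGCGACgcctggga
Bbs4, chr9:59353464-59353493, minus strand: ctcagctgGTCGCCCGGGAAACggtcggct
Bbs7, chr3:36613489-36613518, minus strand: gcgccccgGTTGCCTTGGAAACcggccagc
Dnaaf6, chr1:31222772-31222801, plus strand: acaaagttGTTACCCAGGCAACagagcaac
Ift22, chr5:136908109-136908138, plus strand: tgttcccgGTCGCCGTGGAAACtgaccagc
Ift22, chr5:136908079-136908108, plus strand: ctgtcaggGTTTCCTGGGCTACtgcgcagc
Spag6l, chr16:16829314-16829337, minus strand: tgctgtcgGTTGCCCTGGAGACgc
Bbs1, Bbs4, Ift22 and Spag6l fell in the knockout at 20 dpp, while Bbs7 and Dnaaf6 were not called there. Matches of Bbs1, Bbs4 and Spag6l lay after the annotated start and the others before it.

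Between 17 and 20 dpp most members came up in control testes. Against the heterozygous animals at 17 dpp, 35 of the 43 were higher in the wild types at 20 dpp and 2 were lower (limma, adjusted p under 0.05; 25.9% of all genes tested were called higher and 45.5% lower). Read in the controls of the BD1 line, 37 were higher and 1, Bbs12, was lower (26.8% and 46.2% of all genes). The median log2 difference of the members was 1.12 and 1.03 in the 2 readings, against -0.25 and -0.24 for all genes. Among the 32 members detected in all groups, 24 (75%) and 26 (81.2%) were higher, with medians of 0.78 and 0.79. The other 11 were all called higher in both readings. Most of them, with Tekt3 and Rsph6a, were kept through groups at 20 dpp only, so that their rise is partly given by how members were chosen. Age, genotype of the controls and litter cannot be told apart in these readings. Tekt3, which encodes a filament protein along the doublet microtubules, rose most, by 4.16 ± 0.56 and 4.16 ± 0.51. The radial spoke head gene Rsph6a rose by 3.15 ± 0.33 and 3.17 ± 0.30. Ift20 and Bbs2 were lower in the wild types, by 0.25 ± 0.09 and 0.64 ± 0.17, and were not called in the BD1 line controls.

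In the knockout at 20 dpp, 30 members fell and 1, Ift20, rose relative to wild type (limma, adjusted p under 0.05), that is 69.8% and 2.33% of the 43, where 20.7% of all genes were called lower and 39.4% higher. Of the 30, 19 were at least 2-fold lower. All knockout animals lay below all wild types for 32 members, and 22.4% of all genes showed such a gap. The median log2 fold change was -0.85 over the members and 0.24 over all genes. Among the 32 members detected in all groups, 20 fell (62.5%) with a median of -0.63. Within litter 1, which held the 3 wild types and knockouts 148 and 152, 18 members fell and 1 rose (14.5% and 23.7% of all genes). With litter as a block 30 fell and 1 rose (18.7% and 33.2% of all genes), but Bbs4 and Ift74 were then not called while Dnah11 and Rsph1 were called lower. The other knockouts had no wild-type littermates, so that the blocked effect also rests on knockouts 148 and 152. It is thus no separate check of the fold changes within litter 1. In the same animals 12 of 13 round spermatid genes fell, with a median of -3.42, and their summed signal was 797 to 1242 in the knockouts and 8354 to 16535 in the wild types. Pachytene spermatocyte genes, a list that includes Spag6l, fell in 4 of 9 cases and rose in 1, with sums of 61936 to 97522 against 119370 to 126096. Sertoli cell genes rose in 9 of 10 cases, with sums of 38351 to 42598 against 22994 to 29262. Each of 27 of the 31 calls held with any 1 of the 7 animals left out. Ift20 was not called without wild type 149, and Ift74 was not called without any of the 7 in turn. Rsph3a was lost without knockout 148 or without wild type 149 or 157, and Spag6l without knockout 139 or without wild type 149 or 157.

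**Figure D1:**
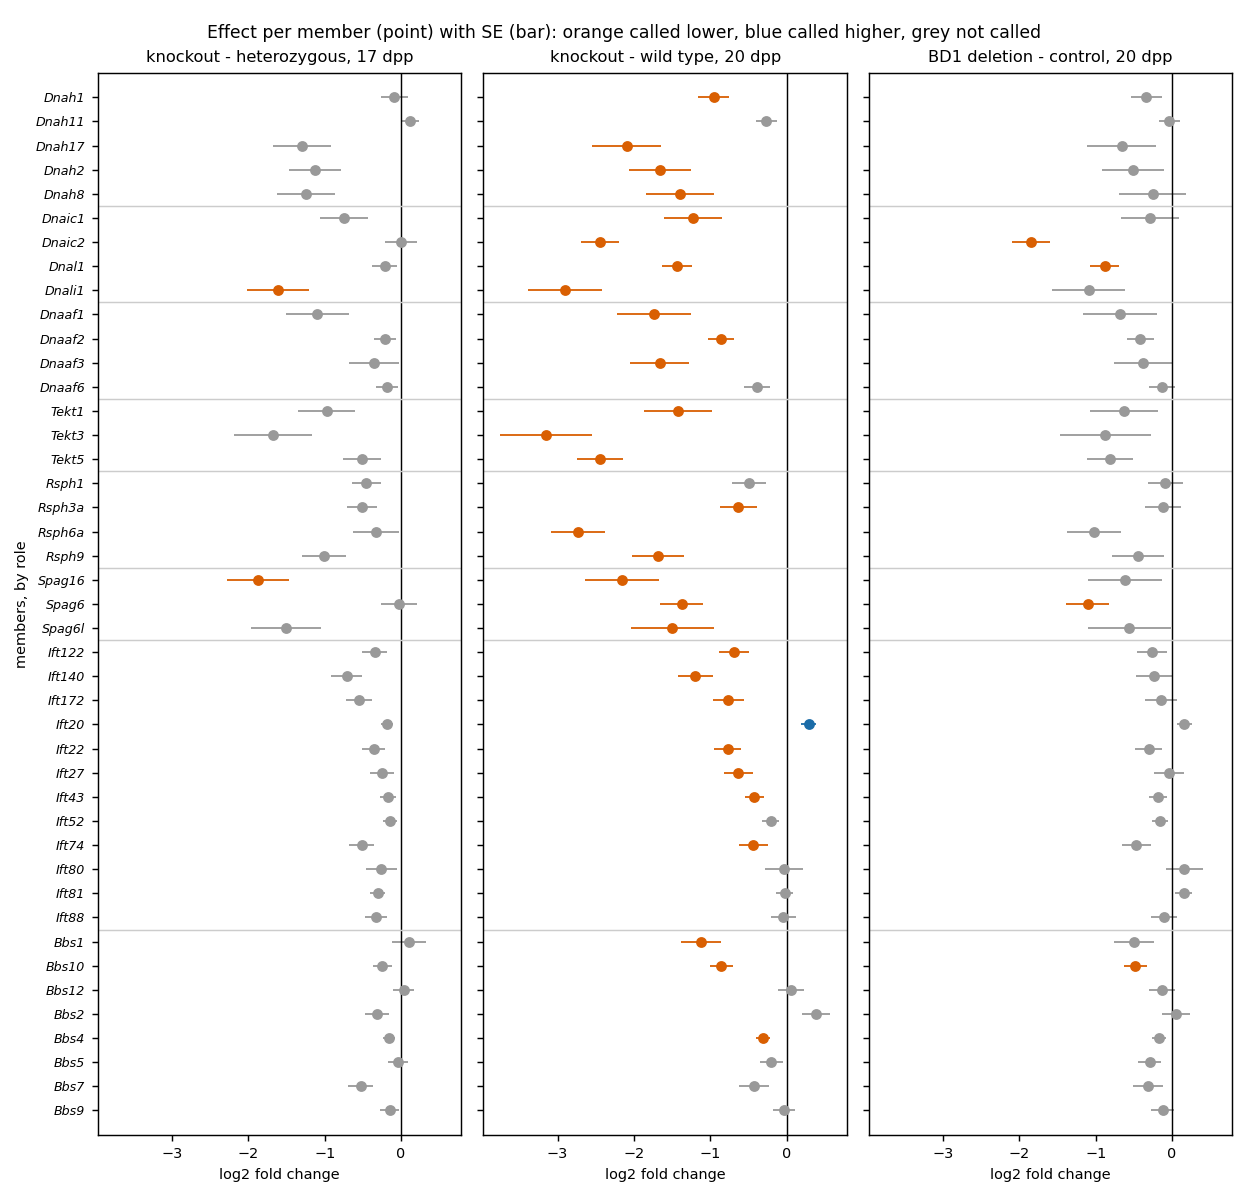
Log2 fold change of each of the 43 members (points, with SE bars) in the knockout at 17 dpp, the knockout at 20 dpp and the BD1 deletion at 20 dpp, with members ordered by role and grey lines between roles. The middle panel holds 30 members called lower and 1 called higher, the left panel 2 called lower and the right panel 4 called lower.

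The heavy chains carry the motor domain of each dynein arm. Of 5, 4 fell in the knockout at 20 dpp. Dnah17, a heavy chain of the outer arms of sperm, gave 6.75, 6.98, 7.85 and 8.23 in the knockouts and 9.21, 9.67 and 9.76 in the wild types at that age. The groups did not overlap, with a change of -2.09 ± 0.45 (limma, adjusted p = 0.00062). Dnah8, another outer arm chain of sperm, fell by 1.39 ± 0.44, and the inner arm chain Dnah2 by 1.66 ± 0.40. Dnah1, an inner arm heavy chain needed for sperm motility in mouse and human, was detected on no array of the knockout and on all 6 of the wild types. Its signals were 4.58, 4.92, 5.12 and 5.17 in the knockouts and 5.84, 5.89 and 5.98 in the wild types, without overlap, so that it was at least 1.33-fold lower (limma, adjusted p = 0.000577). At 17 dpp Dnah1 was detected on no array of either genotype, and at 20 dpp on 5 of 6 arrays of the BD1 controls and 2 of 6 of the BD1 deletion. Those BD1 animals gave 5.01, 5.10 and 5.87 and their controls 5.17, 5.67, 5.90 and 5.92, which overlap. Dnah11, an outer arm chain known from airway cilia, was not called (-0.26 ± 0.14, adjusted p = 0.0999 by limma), but was called lower with litter as a block (-0.32 ± 0.13, adjusted p = 0.0466).

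All 4 intermediate and light chain genes fell at 20 dpp. Dnali1, an inner arm light chain, gave 7.74, 8.19, 9.26 and 9.44 in the knockouts and 11.29, 11.63 and 11.77 in the wild types. No knockout came within 1 log2 unit of a wild type, and the change was -2.90 ± 0.48, a 7.49-fold difference (limma, adjusted p = 5.37e-05). Dnaic2, an intermediate chain that anchors the outer arm, was detected on no knockout array at either age and on no array of the heterozygous animals at 17 dpp. At 20 dpp its signals were 4.32, 4.45, 4.57 and 4.62 in the knockouts and 6.62, 7.07 and 7.10 in the wild types. It was at least 2.71-fold lower in the knockouts (limma, adjusted p = 8.63e-08). Dnal1, an outer arm light chain, gave 7.84, 7.88, 8.16 and 8.29 in the knockouts and 9.38, 9.50 and 9.57 in the wild types, again with no overlap. Its change was -1.44 ± 0.20 (limma, adjusted p = 4.75e-06), and all 3 of its probes were called lower. Dnaic1, the partner intermediate chain of Dnaic2, fell by 1.22 ± 0.38.

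Assembly factors fold and join dynein subunits in the cytoplasm, and 3 of 4 fell at 20 dpp. Dnaaf2 gave 7.65, 7.89, 8.03 and 8.18 in the knockouts and 8.71, 8.80 and 8.89 in the wild types. These ranges did not overlap, and the change was -0.86 ± 0.17 (limma, adjusted p = 0.000351). The other, dimmer Dnaaf2 probe was at -0.19 and not called (adjusted p = 0.409 by limma over all probes). Dnaaf3 fell by 1.66 ± 0.39 and Dnaaf1 by 1.73 ± 0.49. The 3 probes of Dnaaf1 disagreed: the brightest, used here, and a second had log2 fold changes of -1.73 and -1.50, both called, while the third rose by 0.64 (limma, adjusted p = 0.000408), so the direction of Dnaaf1 rests on the probe chosen. It was the only one of 21 members with several probes whose probes were called in opposite directions at 20 dpp. Dnaaf6 was not called (-0.39 ± 0.17, adjusted p = 0.0537 by limma).

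All 3 tektins fell. Tekt3 showed the largest fall of all members, with signals of 6.69, 7.78, 8.99 and 9.30 in the knockouts against 10.98, 11.46 and 11.59 in the wild types. The 4 knockouts were spread over more than 2 log2 units, yet all lay below the lowest wild type, and the change was -3.15 ± 0.60, an 8.9-fold difference (limma, adjusted p = 0.000221). Tekt5, a tektin of sperm tails, gave 4.87, 4.90, 5.64 and 6.01 in the knockouts and 7.48, 7.88 and 8.03 in the wild types. It fell by 2.44 ± 0.30 (limma, adjusted p = 9.85e-07), with 3 of 6 knockout arrays above background. The size of this fall is set in part by background. Tekt1 fell by 1.42 ± 0.44.

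Radial spokes reach from the doublets to the central apparatus, and 3 of the 4 spoke genes fell. Rsph6a, the spoke head protein of mouse sperm, gave 5.04, 5.35, 5.96 and 6.02 in the knockouts and 8.06, 8.38 and 8.53 in the wild types. The gap between the groups exceeded 2 log2 units, and the change was -2.73 ± 0.35 (limma, adjusted p = 2.29e-06). With 3 of 6 knockout arrays above background, the size of this change is set in part by background. Rsph6a was kept through groups other than the knockouts, so that its fall is partly given by how members were chosen. Rsph9, also of the spoke head, fell by 1.68 ± 0.34, and Rsph3a of the stalk by 0.63 ± 0.24. Rsph1 was not called (-0.49 ± 0.22, adjusted p = 0.0632 by limma) without litter as a block, although its knockout animals lay below all wild types.

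The central apparatus genes all fell. Spag16, a protein of the central bridge, gave 8.02, 8.46, 9.00 and 9.25 in the knockouts and 10.62, 10.89 and 11.00 in the wild types. The groups were apart by over 1 log2 unit, with a change of -2.15 ± 0.48 (limma, adjusted p = 0.000881), and its 4 probes all fell. Spag6, an armadillo repeat protein of the central apparatus, gave 4.89, 5.05, 5.28 and 5.64 in the knockouts, with 1 of 6 arrays above background, and 6.44, 6.57 and 6.76 in the wild types. The fitted difference was -1.38 ± 0.28 (limma, adjusted p = 0.00045), a size set in part by background, and its near-identical copy Spag6l was at -1.50 ± 0.54 and called lower (adjusted p = 0.022).

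**Figure D2:**
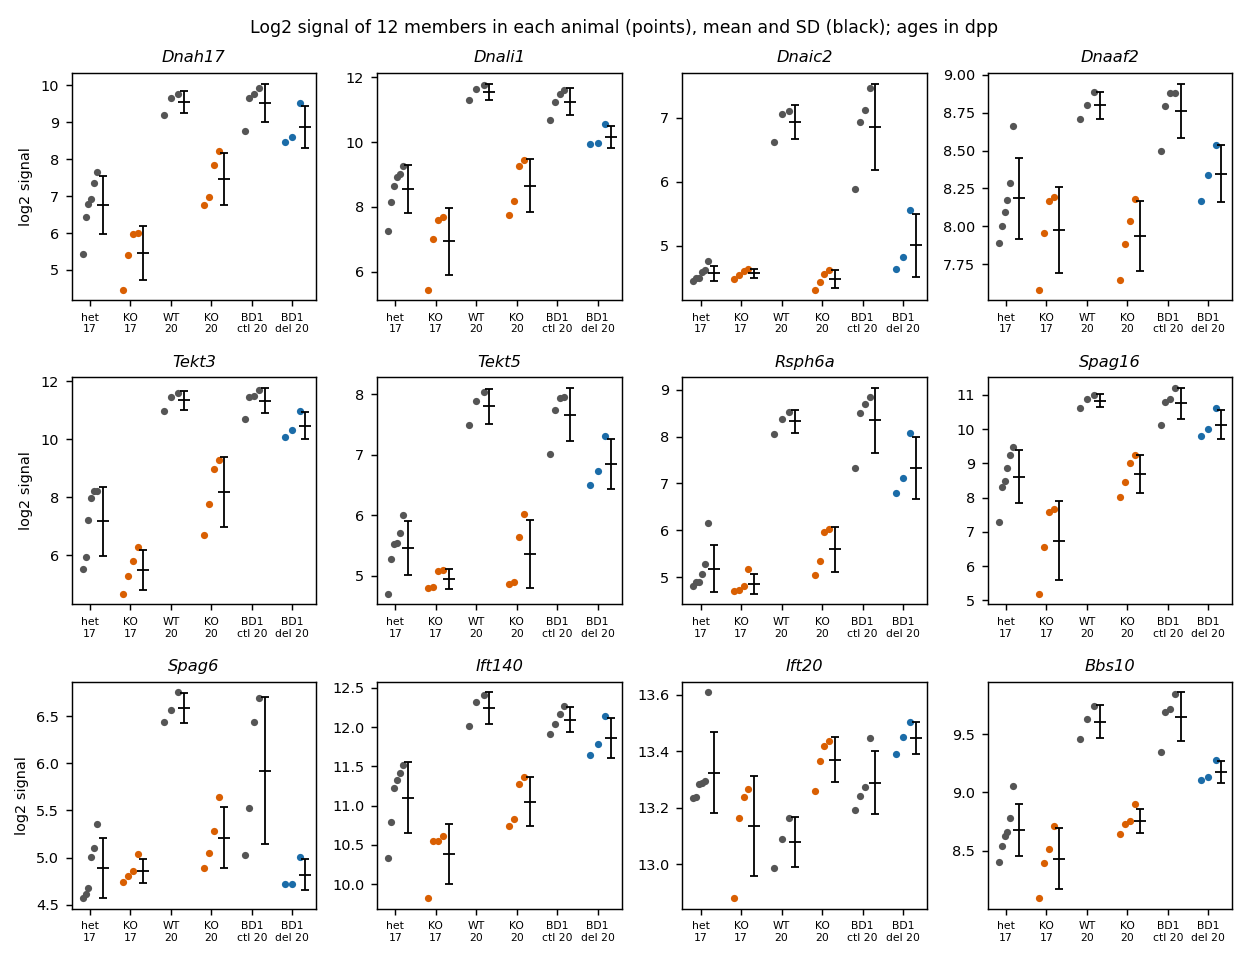
Log2 signal of 12 members in each of the 24 animals (points, grey for controls, orange for the knockout, blue for the BD1 deletion), with the mean and SD of each group in black; ages are in dpp. The knockouts at 20 dpp lie below all wild types in 11 of the panels and above them for Ift20.

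Among the 12 intraflagellar transport genes, 7 fell at 20 dpp, 1 rose and 4 were not called. The 3 members of complex A, which carries cargo back to the cell body, all fell: Ift140 by 1.19 ± 0.23, Ift122 by 0.69 ± 0.19 and Ift43 by 0.42 ± 0.12. Ift140 gave 10.74, 10.83, 11.28 and 11.36 in the knockouts and 12.02, 12.32 and 12.40 in the wild types, without overlap (limma, adjusted p = 0.000284). Of 9 members of complex B, which carries cargo to the tip, Ift22, Ift172, Ift27 and Ift74 fell by 0.77 ± 0.17, 0.76 ± 0.20, 0.63 ± 0.19 and 0.44 ± 0.19. Ift52, Ift80, Ift81 and Ift88 were not called, with values from -0.21 to -0.02. Ift20, a complex B protein that also sits at the Golgi, gave 13.26, 13.37, 13.42 and 13.44 in the knockouts and 12.99, 13.09 and 13.16 in the wild types. The knockouts were all above the wild types, by 0.29 ± 0.10 (limma, adjusted p = 0.0135), and 41.7% of all genes had such a gap upwards. The median of all genes was itself 0.24 higher in the knockout, and relative to it Ift20 changed by 0.05 (adjusted p = 0.718 by limma). Of its 3 probes 2 were called higher. None of the 4 probes of Ift74, which fell by 0.44 ± 0.19 in the fit over genes, was called when p was adjusted over all probes, and 1 of 2 was for Dnah2.

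Of the 8 Bbs genes 3 fell and 5 were not called. Bbs10, a chaperonin-like protein that helps to assemble the BBSome, gave 8.64, 8.73, 8.76 and 8.90 in the knockouts and 9.46, 9.63 and 9.74 in the wild types. The knockouts lay below the wild types without overlap, by 0.85 ± 0.15 (limma, adjusted p = 9.69e-05). Of the BBSome subunits, Bbs1 fell by 1.12 ± 0.26 and Bbs4 by 0.31 ± 0.09 (with litter as a block -0.19 ± 0.10, limma adjusted p = 0.127, not called), while Bbs2, Bbs5, Bbs7 and Bbs9 were not called, with values from -0.43 to 0.39. Bbs12, the other chaperonin-like gene here, was at 0.06 ± 0.17 and not called.

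The 4 knockout animals at 20 dpp differed among themselves by litter. Knockouts 148 and 152 of litter 1 lay above knockouts 139 and 140 of litter 2 for 31 of the 43 members and below them for 2, with a median difference of 0.36. For Tekt3 the litter 2 animals gave 6.69 and 7.78 and the litter 1 animals 8.99 and 9.30. All wild types came from litter 1. Animal 139 had the lightest testis of the group, at 18 mg, was the lowest of its group for 32 members, and the testes of the other 3 weighed 21.2 to 21.5 mg.

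At 17 dpp 2 of the 43 members fell in the knockout and none rose relative to heterozygous animals (limma, adjusted p under 0.05; 1.14% of all genes were called lower and 0.199% higher). Both are members not detected in every group, and of the 32 detected everywhere none was called. At an unadjusted p under 0.05, 22 of the 43 were lower and 0 higher (8.22% and 7.28% of all genes). The difference was below 0 for 40 members, with a median of -0.33 against 0.04 for all genes. Dnali1 gave 5.44, 7.01, 7.61 and 7.67 in the knockouts, and in the 6 heterozygous animals 7.24 at the lowest, 8.78 at the median and 9.26 at the highest. The ranges overlapped, and it fell by 1.61 ± 0.41 (limma, adjusted p = 0.0491). The other, dimmer Dnali1 probe was at -0.65 and not called (adjusted p = 0.154 by limma over all probes). Spag16 gave 5.18, 6.56, 7.57 and 7.66 in the knockouts, and in the heterozygous animals 7.30 at the lowest, 8.67 at the median and 9.47 at the highest. These ranges overlapped as well, and it fell by 1.87 ± 0.41 (limma, adjusted p = 0.0239). Neither call held with each animal left out in turn. Both were lost without knockout 122 or 129 or heterozygous 75 or 127, and Dnali1 also without heterozygous 116, 126 or 131. Without heterozygous animal 121 the count of members called was 12, and without knockout 73 it was 4. Knockout 122, whose testis weighed 9 mg, was the lowest of its group for 37 members, and heterozygous animal 121, at 11 mg, for 34. None of the 13 round spermatid genes was called by limma at this age (1 at an unadjusted p under 0.05), with sums of 538 to 741 in the knockouts and 739 to 1023 in the heterozygous animals. Of the 9 pachytene genes 1 fell (7 were lower at an unadjusted p under 0.05), all 9 differences were below 0 with a median of -1.05, and the sums were 15289 to 59007 in the knockouts and 39999 to 81678 in the heterozygous animals. None of the 10 Sertoli cell genes was called by limma (3 were higher at an unadjusted p under 0.05), with sums of 42736 to 44729 against 36262 to 41978, which do not overlap. The part of these cell types in the levels of the members was not tested.

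Every litter at 17 dpp held both genotypes, and more members passed the test when litters were held apart. With litter as a block in the fit, 23 of the 43 fell (53.5%; 8.16% of all genes were called lower and 2.85% higher). The 23 were 3 of 5 heavy chains, 2 of 4 intermediate and light chains, 1 of 4 assembly factors, all 3 tektins, 3 of 4 radial spoke genes, 2 of 3 central apparatus genes, 8 of 12 intraflagellar transport genes and 1 of 8 Bbs genes. For 27 members (62.8%) the knockout animals lay below every heterozygous littermate in all 3 litters, and 11.3% of all genes did so. The opposite held for 1 member, Dnah11, and for 13.8% of all genes. The median difference of the members was -0.42 in litter 7, -0.40 in litter 8 and -0.70 in litter 9, the litter of knockout 122. Spag16 differed by -1.63, -2.21 and -2.89 in these litters, and Dnali1 by -1.38, -1.94 and -2.26. Outer arm chain Dnah8 differed by -1.13, -1.17 and -2.17. With litter as a block Dnah8 fell by 1.48 ± 0.16 (limma, adjusted p = 2.68e-06), and without the block it was at -1.25 ± 0.37 (adjusted p = 0.0977).

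**Figure D3:**
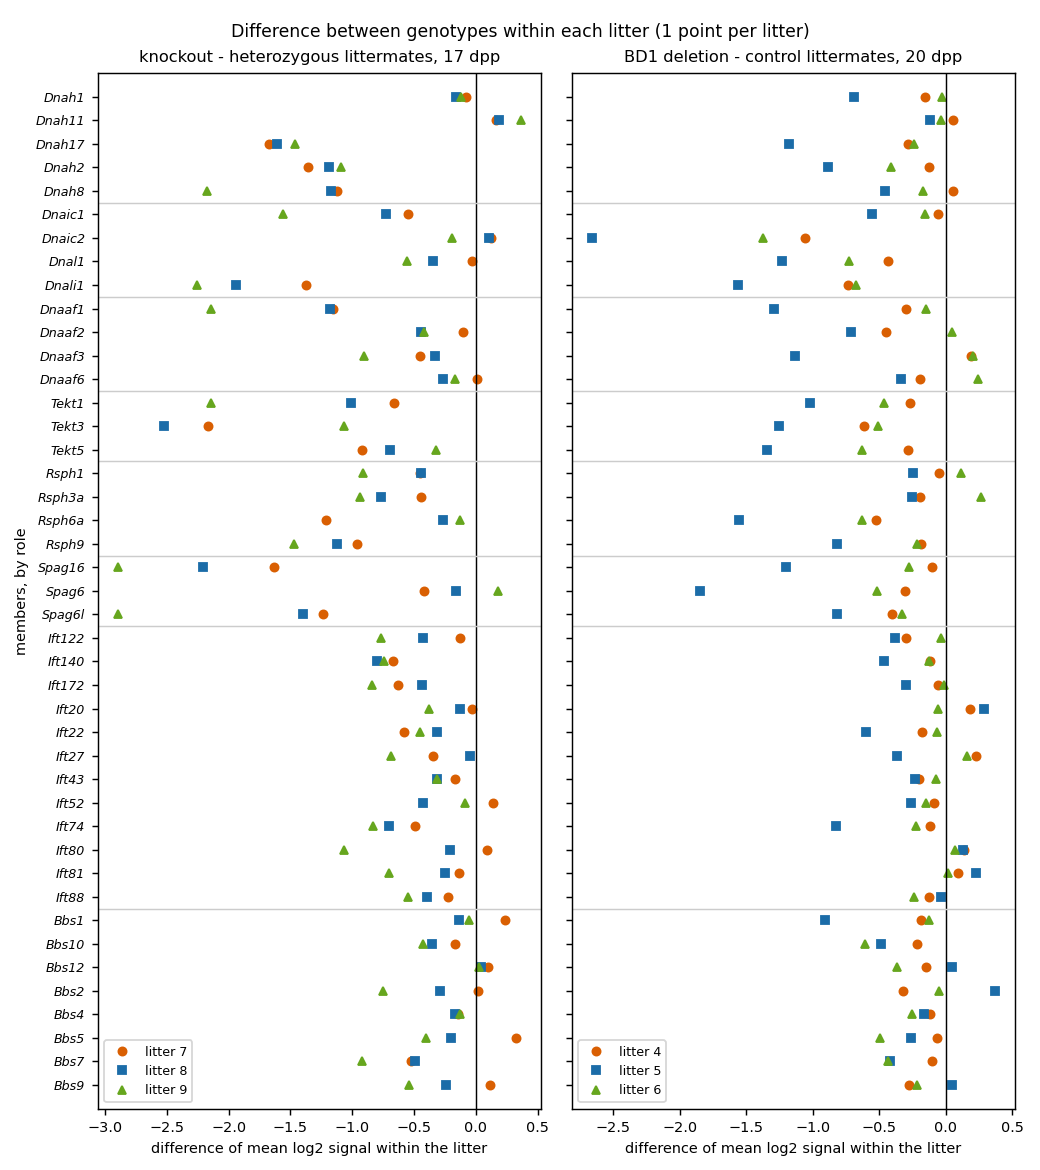
Difference of mean log2 signal between mutant and control littermates for each member, with 1 symbol per litter, in the knockout at 17 dpp (left) and the BD1 deletion at 20 dpp (right). Most symbols lie left of 0 in both panels, and in each panel 27 members lie below every control littermate in all 3 litters.

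Members that were not called at 17 dpp included genes that fell far at 20 dpp. Rsph6a gave 4.71, 4.72, 4.80 and 5.16 in the knockouts at 17 dpp, and in the heterozygous animals 4.81 at the lowest, 4.98 at the median and 6.15 at the highest. Only 1 of 12 arrays at that age was above background for it. Tekt5 gave 4.80, 4.81, 5.07 and 5.10 in the knockouts, and in the heterozygous animals 4.70 at the lowest, 5.54 at the median and 6.01 at the highest, with overlap and a difference of -0.51 ± 0.25 (limma, adjusted p = 0.327). With litter as a block Tekt5 was called lower (-0.65 ± 0.19, limma adjusted p = 0.0344). Dnaic2 gave 4.49, 4.55, 4.61 and 4.64 in the knockouts, and in the heterozygous animals 4.46 at the lowest, 4.55 at the median and 4.76 at the highest, and was not above background in either genotype.

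Ift140 gave 9.82, 10.55, 10.55 and 10.62 in the knockouts at 17 dpp, and in the heterozygous animals 10.34 at the lowest, 11.27 at the median and 11.52 at the highest. It differed by -0.71 ± 0.20 and was not called (limma, adjusted p = 0.0703), but fell with litter as a block (-0.74 ± 0.10, adjusted p = 1.78e-05). Dnaaf2 gave 7.58, 7.96, 8.17 and 8.20 in the knockouts, and in the heterozygous animals 7.89 at the lowest, 8.13 at the median and 8.66 at the highest. Those ranges overlapped. Bbs10 gave 8.09, 8.40, 8.51 and 8.71 in the knockouts, and in the heterozygous animals 8.40 at the lowest, 8.64 at the median and 9.05 at the highest, again with overlap. Ift20 gave 12.88, 13.16, 13.24 and 13.27 in the knockouts, and in the heterozygous animals 13.23 at the lowest, 13.29 at the median and 13.61 at the highest, overlapping too. Spag6 gave 4.74, 4.80, 4.85 and 5.04 in the knockouts, and in the heterozygous animals 4.57 at the lowest, 4.84 at the median and 5.36 at the highest. Dnah1 gave 4.45, 4.65, 4.73 and 4.76 in the knockouts, and in the heterozygous animals 4.52 at the lowest, 4.73 at the median and 4.91 at the highest. Neither gene was above background on any array of either genotype at 17 dpp.

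The knockout effect itself differed between the ages for 11 members (limma, adjusted p under 0.05): 9 had a more negative effect at 20 dpp and 2, Bbs2 and Ift20, a more positive one (11% and 12.4% of all genes). Among the 32 members detected in all groups, 3 were more negative (9.38%) and 2 more positive (6.25%), shares near or below those of all genes. The other 6 with a more negative effect were kept for testing without being detected in every group. With litter as a block 7 members differed, 6 more negative and 1 more positive (8.99% and 7.32% of all genes): Dnaic2, Dnal1, Rsph6a, Spag6, Tekt5, Dnah11 and Ift20. The 9 were Dnah1, Dnaic2, Dnal1, Dnaaf2, Tekt5, Rsph6a, Spag6, Bbs1 and Bbs10. Dnal1 was at -0.21 ± 0.17 at 17 dpp and at -1.44 ± 0.20 at 20 dpp, a difference of effects of -1.22 ± 0.26 (limma, adjusted p = 0.00175). For Rsph6a, above background on 1 of 12 arrays at 17 dpp, the effects were -0.33 ± 0.30 and -2.73 ± 0.35, and they differed by -2.40 ± 0.46 (adjusted p = 0.00075 by limma). Of these 9, Dnah1, Dnaic2 and Spag6 were not above background at 17 dpp in either genotype, so that no effect could be measured then. Rsph6a, Tekt5 and Bbs1 were above background on 1, 2 and 6 of 12 arrays at that age, so that a fall then could hardly be measured and the size of their difference between ages is set in part by background. Spag16 had effects of -1.87 and -2.15, which differed by -0.28 ± 0.63 (limma, adjusted p = 0.756), and Spag6l had -1.50 (not called) and -1.50. Without wild type 149 or 157 the count was 7 in place of 11. Across the 43 members Pearson's r between the effects at both ages was 0.62, and across all genes 0.49. The 2 comparisons share no animals, but all values come from the same probes and 1 normalisation, and genes are not independent replicates. Ages, control genotypes and litters cannot be told apart here.

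**Figure D4:**
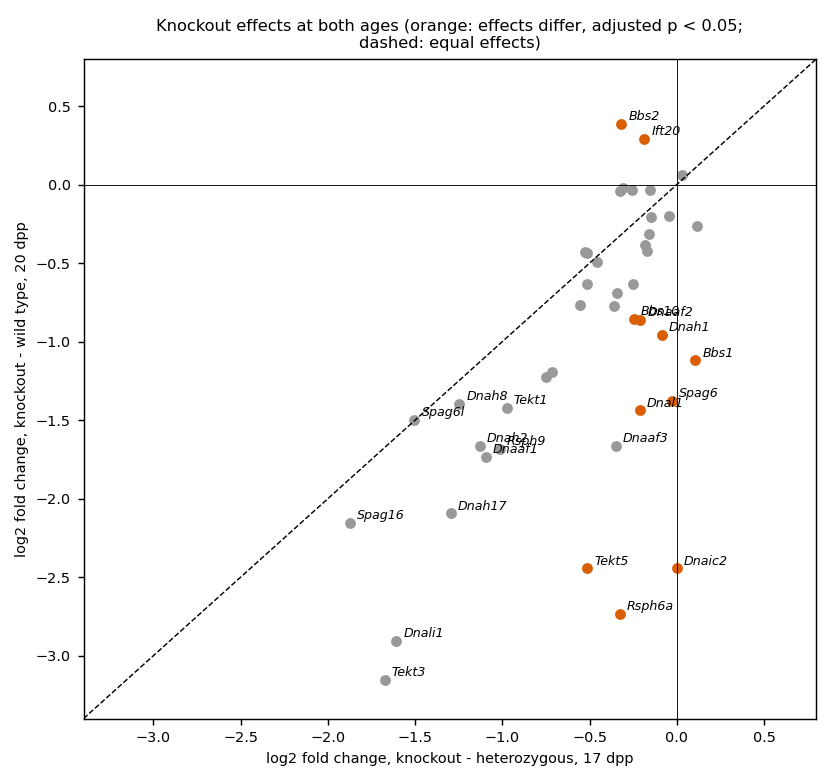
Knockout effect at 17 dpp (horizontal) and at 20 dpp (vertical) of each member, in log2 fold change, with the 11 members whose effects differed in orange and a dashed line for equal effects. Dnaic2, Rsph6a and Tekt5 lie far below the line, and Spag16 and Spag6l lie near it. At 17 dpp Dnaic2 was not above background and Rsph6a and Tekt5 were near it, so that their horizontal positions are limited by background.

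Between 17 and 20 dpp the knockout testis also gained signal. Of the members, 25 were higher in the knockouts at 20 than at 17 dpp and 1, Dnah11, was lower (58.1% of members higher; 13.3% of all genes were called higher and 13.5% lower). Among the 32 members detected in all groups 20 were higher (62.5%) and 1 was lower. Tekt3 rose by 2.68 ± 0.56 in the knockout (limma, adjusted p = 0.00297), and by 4.16 ± 0.56 between the controls. Tekt3 was kept through groups at 20 dpp only, so that both rises are partly given by how members were chosen. It was above background on 2 of 6 knockout arrays at 17 dpp, so that the size of its rise in the knockout is set in part by background. Without knockout 122 of 17 dpp or knockout 152 of 20 dpp the count called was 15. Set against heterozygous animals at 17 dpp, the knockouts at 20 dpp differed in 1 member, Dnaaf3, which was higher by 1.06 ± 0.33 (limma, adjusted p = 0.0381; 5.9% of all genes were called higher and 5.46% lower). That count was 7 without knockout 139, and 0 without any 1 of heterozygous animals 116, 121, 127 and 131 and knockouts 148 and 152. The median difference of the members there was 0.22. A p that misses the threshold does not show that the 2 groups are alike.

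Members that rose most between the ages in controls were those that fell most in the knockout. Pearson's r between the rise in the BD1 line controls and the knockout effect at 20 dpp was -0.93 over the 43 members (Spearman's rho -0.93), and -0.91 over all 11529 genes. These comparisons share no animals. The relation over all genes was close to that over the members. The 4 members with the lowest age difference were Bbs12, Bbs2, Dnah11 and Ift20, and the 4 with the highest were Tekt3, Rsph6a, Dnah17 and Dnali1. The last 4 were not detected in every group. Tekt3, Rsph6a and Dnah17 passed through groups at 20 dpp only, so that their rise is partly given by how members were chosen. For Rsph6a, which did not pass in the knockouts at 20 dpp, its fall is so too. A correlation over the members detected in all groups is not given here.

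**Figure D5:**
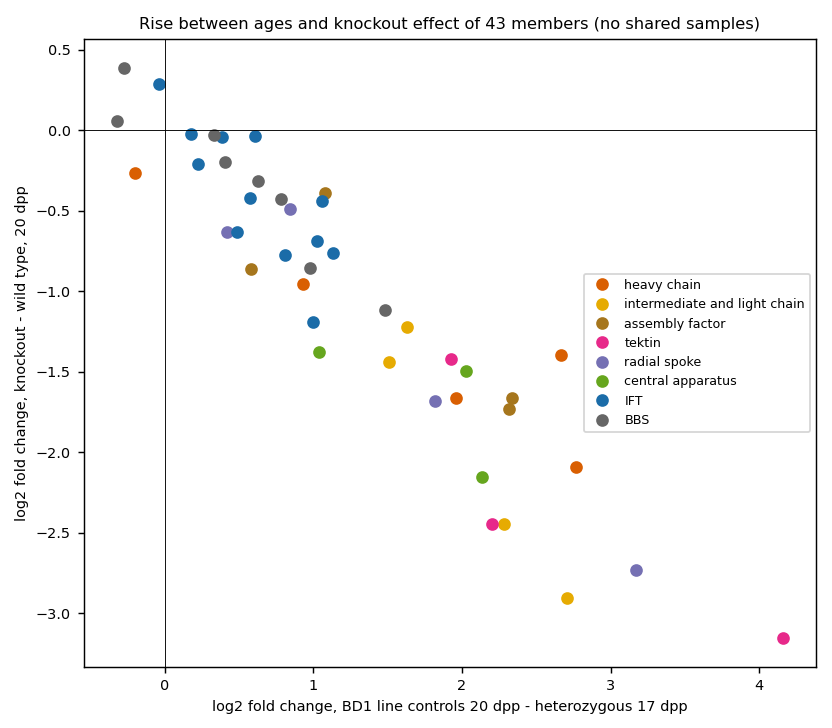
Log2 fold change between heterozygous animals at 17 dpp and BD1 line controls at 20 dpp (horizontal) and knockout effect at 20 dpp (vertical) for the 43 members, coloured by role. Points run from Ift20 and Bbs2 at the top left to Tekt3 at the bottom right.

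In the BD1 deletion 4 members fell and none rose relative to the controls of that line (9.3% of members; 6.4% of all genes were called lower and 3.23% higher), a share near that of all genes. At an unadjusted p under 0.05, 9 were lower and 0 higher (11.4% and 18.7% of all genes). The 4 were Dnaic2, Dnal1, Spag6 and Bbs10, and the median of the members was -0.31 against 0.12 for all genes. Among the 32 members detected in all groups 2 fell (6.25%), with a median of -0.25. Dnaic2 and Spag6 were kept through control groups only, so that their fall is partly given by how members were chosen. BD1 animals lay below all controls for 6 members, and 7.9% of all genes did so. Dnaic2 gave 4.63, 4.84 and 5.56 in the BD1 animals, with 1 of 6 arrays above background, and 5.90, 6.94, 7.12 and 7.47 in the controls. The groups did not overlap, and the fitted difference was -1.85 ± 0.25 (limma, adjusted p = 1.49e-05), a size set in part by background because 5 of 6 BD1 arrays were not above it. Dnal1 gave 8.23, 8.29 and 8.59 in the BD1 animals and 8.66, 9.29, 9.32 and 9.74 in the controls, also without overlap, and fell by 0.89 ± 0.20 (limma, adjusted p = 0.00415). Both calls held with each animal left out. All 3 probes of Dnal1 fell. Of the 13 round spermatid genes 10 fell, with sums of 1282 to 1882 in the BD1 animals and 3262 to 13262 in the controls. Of the 9 pachytene genes 1 fell, with sums of 99858 to 114926 against 110418 to 126216. Of the 10 Sertoli cell genes 1 rose (7 were higher at an unadjusted p under 0.05), with sums of 28691 to 39651 against 21342 to 31149. The part of these cell types in the levels of the members was not tested.

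Spag6 was on no BD1 array above background, with signals of 4.72, 4.72 and 5.00, and gave 5.03, 5.53, 6.44 and 6.69 in the controls. The heterozygous controls were the 2 lowest of these, and Spag6 was at least 1.31-fold lower in the BD1 deletion (limma, adjusted p = 0.0145). Bbs10 gave 9.11, 9.13 and 9.28 in the BD1 animals and 9.35, 9.69, 9.72 and 9.85 in the controls, without overlap, and fell by 0.48 ± 0.15 (limma, adjusted p = 0.0446). Adjusted over all probes in place of genes, neither of its 2 probes was called (-0.48 and -0.49, adjusted p = 0.0515 and 0.123 by limma). Spag6 lost its call without BD1 animal 193 or 197 or control 195 or 196, and Bbs10 without any 1 of BD1 animals 193, 197 and 222 and controls 195, 196 and 219. Against the 2 heterozygous controls alone 1 member fell, and against the 2 wild-type controls alone 7 fell. Without control 191 the count called was 8, without BD1 animal 222 it was 6, and without any 1 of BD1 animals 193 and 197 and controls 195 and 196 it was 2. Shares of all genes called in these settings are not given here, so that these counts cannot be read as a result about the members.

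Dnali1 gave 9.93, 9.98 and 10.54 in the BD1 animals and 10.67, 11.22, 11.49 and 11.60 in the controls, with no overlap but no call (-1.09 ± 0.48, adjusted p = 0.135 by limma). Spag16 gave 9.798, 10.002 and 10.607 in the BD1 animals and 10.11, 10.80, 10.89 and 11.20 in the controls, which overlap. Tekt5 gave 6.50, 6.73 and 7.31 in the BD1 animals and 7.02, 7.74, 7.94 and 7.95 in the controls, with overlap and a difference of -0.82 ± 0.30 (limma, adjusted p = 0.0798). In each case animal 222 was the highest of the 3 BD1 animals and control 191 the lowest of its group. Animal 222 was the highest BD1 animal for 34 of the members, and control 191 the lowest control for 29. Rsph6a gave 6.79, 7.12 and 8.07 in the BD1 animals and 7.32, 8.51, 8.70 and 8.85 in the controls. Tekt3 gave 10.09, 10.33 and 10.99 in the BD1 animals and 10.70, 11.45, 11.50 and 11.71 in the controls. The groups overlapped for both genes, and neither was called. Dnah17 gave 8.47, 8.61 and 9.51 in the BD1 animals and 8.76, 9.65, 9.75 and 9.93 in the controls. The highest BD1 animal there was above the lowest control. Ift140 gave 11.64, 11.79 and 12.14 in the BD1 animals and 11.91, 12.05, 12.17 and 12.27 in the controls. Dnaaf2 gave 8.16, 8.34 and 8.54 in the BD1 animals and 8.50, 8.79, 8.88 and 8.88 in the controls. For Ift20 the BD1 animals were at 13.39, 13.45 and 13.50 and the controls at 13.19, 13.24, 13.27 and 13.45. None of these 3 was called, and the groups overlapped for each.

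Each of the 3 litters of the BD1 line held 1 BD1 animal and 1 or 2 controls. With litter as a block 13 members fell (30.2%; 10.5% of all genes were called lower and 11.2% higher), among them Dnaic2, Dnal1, Dnali1, Rsph6a, Spag6, Tekt5 and Bbs10. For 27 members (62.8%) the BD1 animal lay below every control littermate in all 3 litters, and 17.9% of all genes did so. The opposite held for 1 member, Ift81, and for 30.2% of all genes. The median difference was -0.49 in litter 5, where both controls were wild type, and -0.18 and -0.17 in litters 4 and 6, where the control was heterozygous. Control genotype and litter cannot be told apart in this line.

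The effect of the BD1 deletion was not shown to differ from that of the knockout at 20 dpp for any of the 43 members by limma (7 of 43 differences below 0, median 0.51; 1.25% of all genes were called). At an unadjusted p under 0.05, 12 of the 43 passed, all with the BD1 value above the knockout value, that is a smaller fall or none (7.85% of all genes passed in that direction and 7.97% in the other). Without control 196 the count called was 2, and without knockout 152 it was 1. The largest differences of effect were 2.28 ± 0.85 for Tekt3 (adjusted p = 0.225 by limma), 1.81 ± 0.68 for Dnali1 (0.23) and 1.71 ± 0.50 for Rsph6a (0.103). Tekt5 came nearest to the threshold, with 1.63 ± 0.42 (adjusted p = 0.0584). For the 4 members that fell in both, the difference of effects was 0.27 ± 0.40 for Spag6, 0.37 ± 0.21 for Bbs10, 0.55 ± 0.28 for Dnal1 and 0.60 ± 0.36 for Dnaic2. Spag6 and Dnaic2 were at or near background in both mutants, so that their effects there are bounded by the signal of the controls. Rsph6a and Tekt5 were each above background on 3 of 6 knockout arrays at 20 dpp. Their knockout effects, and the differences of effect given for them, are thus set in part by background. Pearson's r between both effects was 0.82 over the members and 0.89 over all genes, from comparisons that share no animals.

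In the fit without litter as a block, 12 members were called in none of the 3 genotype comparisons: Bbs2, Bbs5, Bbs7, Bbs9, Bbs12, Dnaaf6, Dnah11, Ift52, Ift80, Ift81, Ift88 and Rsph1. Dnali1 and Spag16 fell in the knockout at both ages, Dnaic2, Dnal1, Spag6 and Bbs10 fell both in BD1 animals and in knockouts at 20 dpp, and 24 were called lower in the latter comparison only. These patterns hold for that fit alone. With litter as a block 23 members fell in the knockout at 17 dpp. Among them were Bbs7, Ift81, Ift88 and Rsph1 of the 12, and Dnah8, Dnah17, Tekt3 and Ift140 of the 24.

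Other genes of the same structures were read from lists. In the knockout at 20 dpp, 21 of 22 measured genes of the central apparatus and of the proteins inside the doublets fell, 15 of 17 of the nexin-dynein regulatory complex and spoke partners, 9 of 11 of arm docking and tethering, and 7 of 10 other preassembly factors. Their medians were -1.22, -1.69, -1.33 and -0.99. Of all genes, 20.7% were called lower in that comparison and 39.4% higher. Of 25 transport motors and other complex members 7 fell, 3 rose (Kif3c, Mkks and Trim32) and 15 were not called, with a median of -0.12. Cfap157, a ciliary basal body and flagellum protein, fell by 4.30 ± 0.40 (limma, adjusted p = 1.85e-08). Dydc1 and Iqca, from the list of spoke partners and the regulatory complex, fell by 3.11 ± 0.28 and 2.73 ± 0.26, and Cfap53, a docking protein of the outer arm, by 2.31 ± 0.32. Ttc21a, of intraflagellar transport complex A, and the kinesin Kif17 fell by 2.24 ± 0.28 and 1.39 ± 0.22. Of 7 measured regulators 5 fell, among them Rfx2, an RFX factor of spermatids, by 1.11 ± 0.30 (adjusted p = 0.00396 by limma) and Crem, the CREM factor, by 1.17 ± 0.36 (adjusted p = 0.00813). At 17 dpp 1 of the 84 genes of the first 5 lists was called, Cfap58, which fell. Of all genes 1.14% were called lower at that age and 0.199% higher. With litter as a block 44 of the 84 fell and 1 rose (8.16% and 2.85% of all genes). In the BD1 deletion 12 of the 84 fell and 1 rose (6.4% and 3.23% of all genes). With litter as a block 28 fell and 1 rose there (10.5% and 11.2% of all genes). Of the 7 regulators 1 was called lower at 17 dpp, by more than 2-fold, and none was called in the BD1 deletion.

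Markers of other cells in the testis moved in the same comparisons. Beside the spermatid, spermatocyte and Sertoli cell genes given above, spermatogonial genes rose in 6 of 8 cases in the knockout at 20 dpp, with summed signals of 4877 to 6213 in the knockouts and 3172 to 3733 in the wild types. Leydig cell genes rose in 2 of 5 cases, with sums of 11886 to 16260 against 6705 to 10881. In that comparison 39.4% of all genes were called higher, so the Leydig cell count is near the share of all genes. At 17 dpp none of the 8 spermatogonial and 5 Leydig cell genes was called by limma (1 and 0 at an unadjusted p under 0.05), and in the BD1 deletion 1 spermatogonial gene rose and no Leydig cell gene was called (2 and 0 at an unadjusted p under 0.05). The part of all these markers in the levels of the members was not tested. Of 12 genes with a probe from a list for the ciliated and secretory epithelium of efferent ducts and epididymis, by their best detected probe, Mcidas, Gmnc, Pax2 and Rnase10 were detected on 0 of 36 arrays, Lcn8 on 1 and Lcn5 on 2. Foxj1 was detected on 20, Adam7 on 25, Esr1 on 30, Cftr on 34, and Aqp1 and Cst11 on all 36. Of 6 measured genes of that list 1 fell and 1 rose in the knockout at 20 dpp, and their summed signal was 526 to 666 in the knockouts and 479 to 532 in the wild types.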

How the data were processed

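Total RNA of whole testis was hybridised to single-colour Illumina bead arrays. The authors deposited an intensity and a detection p-value per probe, with GenomeStudio 2011.1 named in the submitters' processing notes, and a matrix of processed log2 values, used here only as an alternative. Intensities were corrected and quantile normalised with limma 3.58.1 (neqc, offset 16; R 4.3.3, statmod 1.5.0), and the log2 values of repeated arrays were averaged per animal. A probe entered if 3 or more animals had it detected (21190 of 45281), each gene took its brightest probe, and 1 model over 6 groups (lmFit, eBayes with trend) gave log2 fold changes and p-values adjusted over 11529 genes. Of the probes, 34885 had 1 gene symbol, 18 several and 10378 none.

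The members and lists were chosen with earlier results of these data known. Values of every animal (of the 6 heterozygous animals at 17 dpp the lowest, median and highest) are given for Dnali1, Spag16, Tekt5 and, per role and genotype comparison, the called member with the smallest adjusted p in each direction. Tekt3, Dnah17, Dnal1 and the other list genes beyond the 3 with the smallest adjusted p per list were chosen after their values were seen. A gene with no detected array in 1 group has a lower bound of its fold: the mean of the bright group against the mean, over arrays of the dim group, of the lowest signal among detected probes or the signal of the probe where that is higher. The fit was also run on simulated data, and the outcome is not given here. Replicate numbers of the labels share only a number: correlations of same-numbered arrays ran from -0.15 to 0.66. Alternatives covered background correction, scaling, detection, probe choice, litter, blocks and single animals.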

Additional observations from a re-analysis of the deposited data

Results flagged for a closer look

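A sample stood far from the rest of its group in 14 of 172 sets of values tested, the 43 members in each of the 4 groups with 4 or 6 animals, where about 1 in 20, or 8.6, would stand out by chance. Knockout animal 122 at 17 dpp accounted for 7 of them, as the lowest of its group, with log2 signals of 7.38 for Dnah8, 7.61 for Dnaic1, 9.82 for Ift140, 10.6 for Ift172, 9.34 for Ift27, 12.9 for Rsph1 and 7.88 for Spag6l. This animal had the lightest testis of all 24, at 9 mg. Among the heterozygous animals at 17 dpp, animal 121 stood apart for Dnaaf3 at 6.07, animal 75 for Rsph6a at 6.15, animal 127 for Ift20 at 13.6 and animal 116 for Ift81 at 11.2. At 20 dpp, knockout 139 stood apart for Bbs5 at 9.62, and the BD1 line controls 195 for Ift88 at 10.6 and 191 for Spag6l at 13.3.

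The knockout effect differed between 20 and 17 dpp, by the test of the difference in limma, for 11 members. Of these 9 were more negative and 2 more positive at 20 dpp (11% and 12.4% of all genes). Among the 32 members detected in all groups the shares were 9.38% and 6.25%, near or below those of all genes. The difference (20 dpp minus 17 dpp) was -2.44 for Dnaic2, -2.40 for Rsph6a, -1.93 for Tekt5, -1.35 for Spag6, -1.22 for Dnal1, -1.22 for Bbs1, -0.87 for Dnah1, -0.65 for Dnaaf2 and -0.61 for Bbs10, and it was 0.48 for Ift20 and 0.71 for Bbs2. Adjusted p from limma ran from 1.16e-05 for Dnaic2 to 0.0409 for Dnaaf2. Dnaic2, Spag6 and Dnah1 were above background on no array at 17 dpp, and Rsph6a and Tekt5 on 1 and 2 of 12, so that their effects at that age were limited by background and these differences are not measured sizes. Bbs1 was above background on 3 of 6 arrays of each genotype at 17 dpp, so that its difference is set in part by background. Controls were heterozygous at 17 dpp and wild type at 20 dpp, so that age and control genotype cannot be told apart in these differences.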

How the results depend on the processing

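Of the values of single named genes under the alternatives, 660 kept their side of the threshold, 36 lost and 32 gained a call. None was called in the opposite direction. Values that were not called could change sign, as did those of Dnaic2 and Spag6 in the knockout at 17 dpp. Members called in the knockout at 17 dpp (2) were 1 without background correction, with the authors' processed matrix, with no filter on detection and with the mean of all probes, 0 with only the groups compared, 23 with litter as a block, 14 with arrays kept and the animal as a random block, 4 relative to the median of all genes and 5 without the lightest testis of each group. Of the 84 other cilium genes, the number called there (1) was 0 without background correction, with the authors' matrix, with no filter on detection and with only the groups compared, 4 with median scaling, 45 with litter as a block, 25 with the animal as a random block, 5 relative to the median of all genes and 8 without the lightest testes. In the knockout at 20 dpp (31) litter 1 alone gave 19, with 41 other cilium genes (63). The median of the members there (-0.85) was -0.64 without background correction and with the authors' matrix, -0.77 with detection in at least 12 animals (39 members), -0.76 with litter as a block and in litter 1 alone, -1.10 relative to the median of all genes, and -0.96 and -0.55 on the brighter and dimmer arrays. The BD1 deletion (4, and 13 other cilium genes) gave 1 and 8 with detection in 12 animals, 2 and 5 with only the groups compared, 13 and 29 with litter as a block, 8 and 26 with the animal as a random block, 1 and 3 against heterozygous controls, 7 and 23 against wild-type controls, and 8 members relative to the median of all genes. Members whose BD1 and knockout effects differed (0) were 1 with median scaling and relative to the median of all genes, 2 with litter as a block and 3 with the animal as a random block. The knockouts at 20 dpp against heterozygous animals at 17 dpp (1) gave 6 with median scaling, 0 with no filter on detection and 5 with the animal as a random block. The difference of knockout effects between ages (11) gave 7 with litter as a block, and the age difference in the knockouts (26) gave 11 with only the groups compared. The array number of the labels as a replicate block, with the animal as a random block, gave 16 members and 29 other genes for the knockout at 17 dpp, 9 and 28 for the BD1 deletion, 3 for the difference of BD1 and knockout effects and 8 for the knockouts at 20 dpp against heterozygous animals. The causes of these changes were not tested. Except where given in the Results, shares of all genes called under these alternatives, or with 1 animal left out, are not given here. Leaving out 1 animal at a time, members called ranged from 0 to 12 (knockout, 17 dpp), from 27 to 32 (knockout, 20 dpp), from 2 to 8 (BD1 deletion), from 0 to 2 for the difference of BD1 and knockout effects, from 7 to 14 for the difference between ages, from 15 to 28 for the age difference in the knockouts, from 34 to 38 and 36 to 39 for that in wild types and BD1 line controls, and from 0 to 7 for the knockouts at 20 dpp against heterozygous animals (7 without knockout 139). The medians ranged from -0.43 to -0.17, from -0.91 to -0.77 and from -0.43 to -0.23 in the 3 genotype comparisons, and other cilium genes from 0 to 21, from 53 to 65 and from 7 to 27.

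Signal over background limited Dnaic2, Dnah1 and Spag6 most: at 17 dpp none of their arrays was above background, and in the mutants at 20 dpp few were. The number of arrays, 6 a group from 3 to 6 animals, limits the precision. Alternatives on brightness, on the lightest testes and within litters were chosen after seeing the data.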
